A study of Mus musculus with 6 samples.

Results

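Ubiquitin-specific proteases, the Usp family, were examined in prostates of TRAMP mice given the compound OSU-CG5 or vehicle. Members were the genes whose probe sets carried a single symbol starting with Usp and a number, letters after it allowed, which gave 51 of the 18193 named genes on the array. Where a gene had several probe sets, its representative was chosen by signal, as the one brightest on average across all 6 arrays, and that mean was the only measured value the choice used. Earlier results of these same arrays were known when the family was picked, so its differences are descriptions and support nothing on their own. These genes had 128 probe sets in all, so 77 others were read beside the 51 representatives. Usp6nl, a GTPase-activating protein, and Usp46os2, a noncoding RNA antisense to Usp46, met the naming rule but encode no protease. Another 4 probe sets joined a Usp symbol to a different symbol and were not used.

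TRAMP mice carry SV40 T antigens driven by a probasin promoter, which acts in prostate epithelium, and develop prostate tumours as they age. All 6 mice were intact males of the genotype (C57BL/6 TRAMP x FvB) F1. Treatment began when they were 6 weeks old and ended at 10 weeks, 4 weeks in all. The OSU-CG5 group (n = 3) received 100 mg/kg by gavage each day, and the vehicle group (n = 3) was gavaged without the compound. Dorsal and lateral lobes were dissected about 2 to 4 h after the final gavage, and RNA of each mouse was read on its own Affymetrix array. Signals are log2 values made by the authors with RMA, in which a difference of 1 unit is a doubling of signal. In whole lobes, fewer cells of a type and less RNA per cell cannot be told apart.

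Usp enzymes are cysteine proteases that cut ubiquitin from proteins. They undo the work of ubiquitin ligases and so can spare a protein from the proteasome, change its trafficking or end a ubiquitin signal. Several of them, Usp2, Usp7 and Usp10 among these, have been described as acting on the p53 or Mdm2 proteins. Messenger RNA levels, which these arrays read, do not give enzyme activity.

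The arrays differed in ways that bear on these genes. Vehicle replicate 2 correlated less with the other arrays (Pearson r across probe sets 0.966 to 0.981) than they did among themselves, where each array's best correlation was 0.992 or higher. Its mean over 6 seminal vesicle markers was 7.91, against 3.56 to 5.08 on the other arrays. Luminal prostate markers averaged 11.7 to 12.2 on all 6 arrays, though Spink1 among them ranged from 10.2 to 13.2. Neuroendocrine markers averaged 4.74 to 4.88 in vehicle and 4.55 to 4.62 with OSU-CG5, without overlap. Macrophage markers averaged 7.13 to 7.73 in vehicle and 6.73 to 6.99 with OSU-CG5, and all 5 read lower with OSU-CG5. All 5 endothelial and all 5 skeletal muscle markers also read lower, as did all 3 basal and all 6 seminal vesicle markers. So did all 4 measured lymphocyte and all 4 male germ cell markers, and 4 of 5 each for smooth muscle and fibroblasts. Of the 6 measured luminal markers 3 read lower. Over all genes 11945 of 18193 read lower, so this direction was common. The signal of the 3' end of Gapdh exceeded that of its 5' end by 2.15 to 2.76 in vehicle and by 2.72 to 3.03 with OSU-CG5. For Actb the excess was 2.91 to 3.15 in vehicle and 2.97 to 3.11 with OSU-CG5, so the groups overlapped. The part of these shifts in the Usp values was not tested, and values without vehicle replicate 2 are given below.

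Most Usp genes were well expressed. The median member had a mean signal of 7.65, against 6.19 over all named genes, and 38 of 51 had a mean of at least 6. Usp16, a histone H2A deubiquitinase, had the highest mean (11.2), followed by Usp1 (11.1) and the splicing protein Usp39 (10.4). Usp16 read 11.43, 10.79 and 11.32 in vehicle and 11.43, 11.22 and 11.20 with OSU-CG5, so the groups overlapped. Usp39 also overlapped, at 10.51, 10.73 and 10.13 in vehicle and 10.40, 10.27 and 10.22 with OSU-CG5. At the other end stood Usp44, which guards the mitotic checkpoint, Usp17la, a cytokine-inducible enzyme of blood cells, and Usp26, an X-linked gene of the testis. Usp44 read 3.10, 3.07 and 2.55 in vehicle and 2.87, 2.78 and 2.88 with OSU-CG5. Usp17la read 2.93, 3.29 and 2.79, then 2.84, 2.91 and 2.84. Usp26 read 3.77, 3.81 and 3.62 in vehicle and 3.55, 3.47 and 3.43 with OSU-CG5, and here every treated array was below every vehicle array. Levels of different probe sets are not on a common scale, so this order is only a rough guide.

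Treated and vehicle prostates were compared to see whether transcripts of the family differed after treatment. More of the well-expressed Usp genes read higher with OSU-CG5 than lower, by amounts below 1.5-fold for all but Usp8 and Usp53. The 9 that read higher at an unadjusted p under 0.05 were Usp53, Usp8, Usp38, Usp33, Usp47, Usp40, Usp15, Usp9x and Usp42. The 2 that read lower were Usp14, the deubiquitinase of the proteasome, and the antisense RNA Usp46os2. No member passed adjustment for the number of probe sets on the array, so none is called changed.

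In limma with Benjamini-Hochberg adjustment over 45037 probe sets, 0 of 51 members had an adjusted p under 0.05, as did 0% of all probe sets. The smallest adjusted p of a member was 0.177. At an unadjusted p under 0.05, 9 of 51 members were higher (17.6%), where 5.4% of all genes by the same choice of probe set were higher, and 2 were lower (3.92%), where 8.43% of all genes were. Groups did not overlap for 13 members in the higher direction, against 8.1% of all genes, and for 4 in the lower direction, against 14.2%. Bright probe sets read higher more often in general. Among genes with a mean of at least 6, 9 of 38 members were higher (23.7%) beside 9.13% of all such genes, and 1 was lower beside 7.17%. The 13 dimmer members gave 0 higher and 1 lower, beside 5.4% and 8.43% of all genes. Those shares are not matched for brightness. Of all 18193 genes, 9627 had a mean of at least 6. These brighter genes held 879 of the 983 that were higher and 690 of the 1534 that were lower. Few dim genes were therefore higher in general. The count of 9 was 6 without vehicle replicate 2 (6.07% of all genes), 10 without vehicle replicate 3 (6.32%) and 4 without OSU-CG5 replicate 3 (3.27%). Of the 9 genes themselves, 5, 7 and 4 were in these counts, in that order.

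The median log2 difference over the 51 members was 0.02, from -0.37 for Usp46os2 to 0.97 for Usp8, and the median over all genes was -0.09. Among the 38 brighter members the median was 0.14 and 25 were above 0, beside -0.02 over all genes of that brightness. Among the 13 dimmer members it was -0.14 and 11 were below 0, where 11945 of all 18193 genes were below 0. Of those 11945, 5145 were among the 9627 genes with a mean of at least 6. Dim genes were thus below 0 more often in general. The mean over the brighter members was 8.13, 8.14 and 8.13 on the vehicle arrays and 8.28, 8.27 and 8.28 on the OSU-CG5 arrays, so treated and vehicle arrays did not overlap. For the dimmer members it was 4.47, 4.66 and 4.46 in vehicle and 4.38, 4.41 and 4.38 with OSU-CG5, lower and also without overlap. The mean over all genes did not overlap either. It was 6.40, 6.45 and 6.38 in vehicle and 6.36, 6.36 and 6.35 with OSU-CG5. A gap between array means is therefore not particular to the Usp genes. The mean over all genes was lower with OSU-CG5, like that of the dimmer members, whereas that of the brighter members was higher. Array means over all genes of that brightness were not computed. Without vehicle replicate 2 the median over all 51 was 0.09, and without vehicle replicate 3 it was -0.04.

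**Figure D1:**
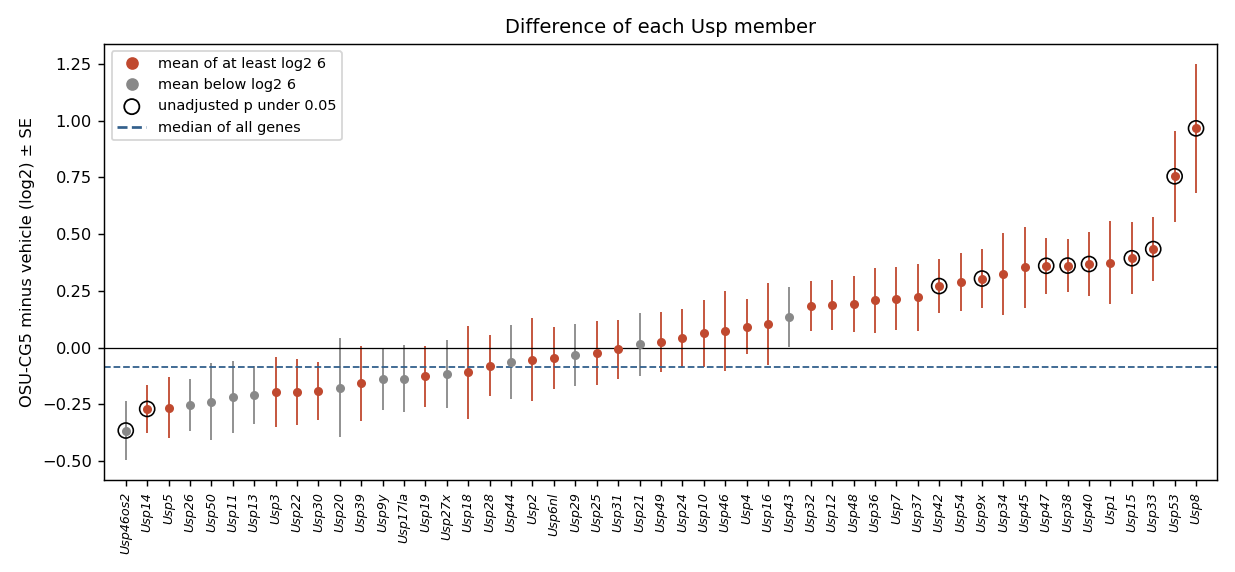
Log2 difference (OSU-CG5 minus vehicle) with its moderated SE for each of the 51 members, sorted, with red for a mean of at least log2 6, grey for dimmer members and a ring for an unadjusted p under 0.05. The 9 ringed points on the right lie between 0.27 and 0.97, the 2 on the left are Usp46os2 and Usp14, and the dashed line is the median of all genes at -0.09.

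**Figure D2:**
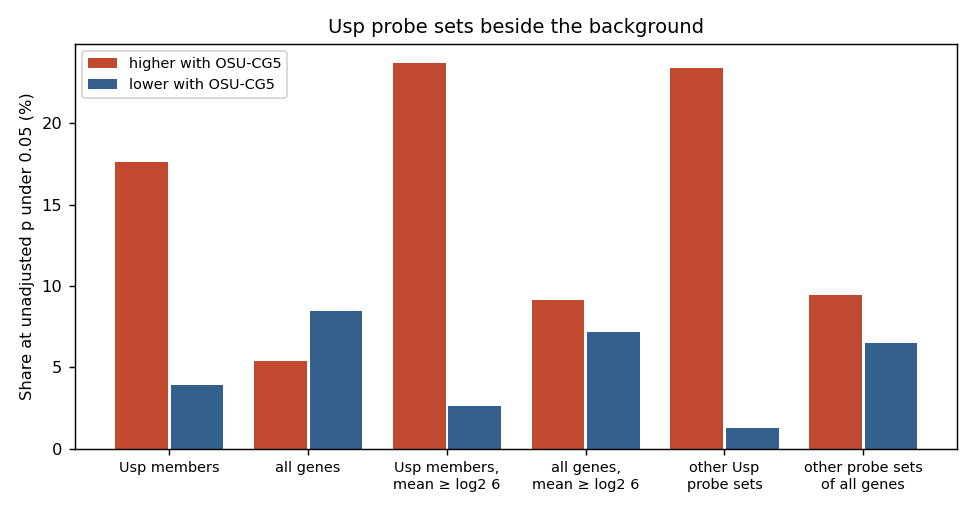
Share of probe sets (%) at an unadjusted p under 0.05 that were higher (red) or lower (blue) with OSU-CG5, for the Usp genes and for all genes by the same choice of probe set. The red bars of the Usp genes stand at 17.6%, 23.7% and 23.4%, beside 5.4%, 9.13% and 9.47% for all genes.

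The role groups that follow were drawn up with results known, so their counts are descriptions. Over all genes, 34.3% were above 0, 5.4% were higher at an unadjusted p under 0.05 and 8.43% lower. Among genes with a mean of at least 6, as 38 of the 51 members had, these shares were 46.6%, 9.13% and 7.17%. Of 8 genes acting at membranes, endosomes and junctions, 7 were above 0, with a median of 0.24, and 3 were higher at that p, beside 5.4% of all genes. Usp53, a protein of epithelial tight junctions, read 7.40, 6.93 and 7.74 in vehicle and 8.15, 8.22 and 7.97 with OSU-CG5. Every treated array was above every vehicle array, and the lowest value was that of vehicle replicate 2. The difference was 0.75 (SE 0.20), 1.69-fold (limma adjusted p = 0.177). Leaving out vehicle replicate 2 gave 0.54 (limma adjusted p = 0.128). Leaving out vehicle replicate 3 gave 0.95 with an adjusted p of 0.0475, in a fit where 0.418% of all genes were higher at that threshold. Over the 6 fits that each leave out an array, its adjusted p ran from 0.0475 to 0.457.

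Usp8 removes ubiquitin from internalised growth factor receptors and steers them between recycling and the lysosome. Its representative probe set read 7.08, 6.00 and 7.08 in vehicle and 7.44, 7.85 and 7.76 with OSU-CG5. The groups did not overlap, and vehicle replicate 2 lay more than 1 unit below the other arrays. The difference of 0.97 (SE 0.28), 1.95-fold (limma adjusted p = 0.193), became 0.60 without that array (adjusted p = 0.0978). The other Usp8 probe set, nearly as bright, read 6.78, 7.29 and 6.80 in vehicle and 7.22, 6.99 and 7.04 with OSU-CG5, a difference of 0.13 (SE 0.16). There vehicle replicate 2 was the highest of the 6 arrays, so the gene's probe sets did not show the same pattern.

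Usp33, which deubiquitinates receptors such as Robo1, read 9.27, 9.24 and 9.55 in vehicle and 9.97, 9.63 and 9.77 with OSU-CG5. The groups stood apart by little, and the difference was 0.43 (SE 0.14), 1.35-fold (limma adjusted p = 0.219). Usp54, the closest relative of Usp53, read 8.08, 8.17 and 7.85, then 8.29, 8.26 and 8.42, again without overlap, a difference of 0.29 (SE 0.13). Usp32, a membrane-anchored enzyme, differed by 0.18 (SE 0.11), from 8.96, 9.07 and 8.996 to 9.25, 9.19 and 9.14. The paralogs Usp12 and Usp46, which share the activators Wdr48 and Wdr20, differed by 0.19 (SE 0.11) and 0.07 (SE 0.18). Usp6nl, which acts on Rab GTPases, differed by -0.05 (SE 0.14).

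**Figure D3:**
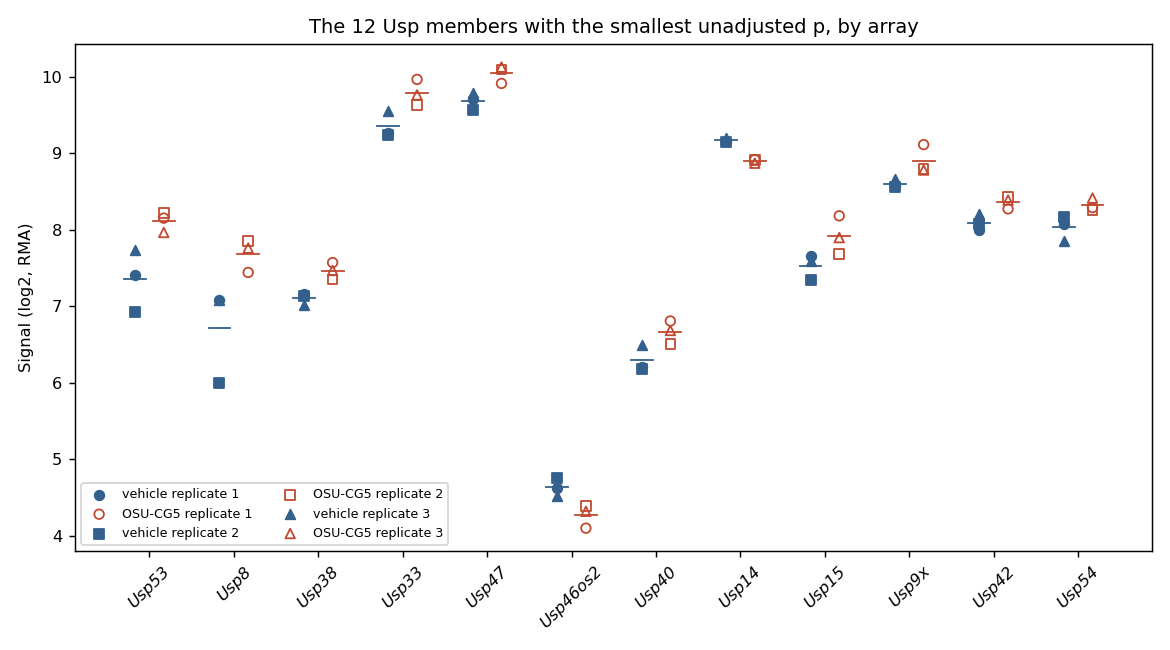
Signal (log2) on each of the 6 arrays for the 12 members of smallest unadjusted p, with vehicle in filled blue, OSU-CG5 in open red, a marker shape for each replicate number and a bar for the group mean. The square of vehicle replicate 2 lies lowest for Usp53 (6.93) and Usp8 (6.00), while for Usp14 the vehicle arrays lie together at 9.15 to 9.21 and the treated arrays at 8.87 to 8.92.

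Among 8 genes of DNA repair and the cell cycle, 6 were above 0, with a median of 0.25. At an unadjusted p under 0.05 2 were higher, beside 5.4% of all genes. Usp47, a relative of Usp7 that regulates DNA polymerase beta, read 9.71, 9.57 and 9.79 in vehicle and 9.92, 10.10 and 10.13 with OSU-CG5. Treated arrays were all above vehicle arrays, and the difference was 0.36 (SE 0.12), 1.28-fold (limma adjusted p = 0.228). Its second probe set showed the same order, at 8.50, 8.62 and 8.53 in vehicle and 8.74, 8.85 and 8.88 with OSU-CG5 (difference 0.28, SE 0.11). The dimmest one differed by 1.30 (SE 0.42), with vehicle replicate 2 far below at 5.04, and by 0.72 without that array. Usp47 was thus higher on all 3 of its probe sets.

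Usp42, which acts on p53, read 7.995, 8.08 and 8.21 in vehicle and 8.27, 8.43 and 8.39 with OSU-CG5. The difference was 0.27 (SE 0.12; limma adjusted p = 0.301), while the gene's other probe set, near the floor of the scale at 2.58 to 3.14, differed by -0.28. Averaging both turned the gene's difference to -0.0070. Usp1, which deubiquitinates Fancd2 and Pcna, read 11.06, 10.46 and 11.10 in vehicle and 11.36, 11.21 and 11.17 with OSU-CG5, without overlap. Its difference was 0.37 (SE 0.18), but 0.17 without vehicle replicate 2. Another Usp1 probe set read 7.69, 7.28 and 7.72 against 8.56, 8.23 and 8.29, a difference of 0.79 (SE 0.16; limma adjusted p = 0.143), the smallest adjusted p among all Usp probe sets. The remaining one differed by 0.05 (SE 0.11). Usp45, an enzyme of the Ercc1 repair nuclease, differed by 0.35 (SE 0.18), or 0.16 without vehicle replicate 2. Usp37 differed by 0.22 (SE 0.15), Usp24 by 0.04 and Usp28 by -0.08. Usp20 differed by -0.18, or 0.076 without that array. Usp28, which steadies Myc, read 6.95, 6.79 and 6.63 in vehicle and 6.55, 6.75 and 6.83 with OSU-CG5, so the groups overlapped throughout.

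Of 7 genes linked to TGF-beta, Wnt and growth factor signalling, 4 were above 0 and 2 were higher at an unadjusted p under 0.05, beside 5.4% of all genes. Usp15, which deubiquitinates the TGF-beta receptor complex, read 7.65, 7.34 and 7.59 in vehicle and 8.18, 7.69 and 7.90 with OSU-CG5, a difference of 0.39 (SE 0.16; limma adjusted p = 0.277). The gap between the groups was narrow, from 7.65 to 7.69. All 5 other Usp15 probe sets were dim, with means below 6, and differed by 0.03 to 0.52. Usp9x, an X-linked enzyme that acts on Smad4 and many other proteins, read 8.57, 8.56 and 8.66 in vehicle and 9.12, 8.80 and 8.78 with OSU-CG5. It differed by 0.30 (SE 0.13), and its other 6 probe sets by -0.01 to 0.33. The unadjusted p of Usp9x missed 0.05 without any 1 of the 6 arrays.

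Usp34, which acts on axin in Wnt signalling, differed by 0.32 (SE 0.18), or 0.13 without vehicle replicate 2, and Usp4 differed by 0.09 (SE 0.12). Usp11 and the Y-linked Usp9y, both with means below 6, differed by -0.22 and -0.14. Usp2, an enzyme of Mdm2 and fatty acid synthase, read 8.12, 8.60 and 8.03 in vehicle and 7.97, 8.39 and 8.23 with OSU-CG5. Its difference was -0.05 (SE 0.18), and it turned to 0.12 without vehicle replicate 2, so no direction can be given.

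All 3 genes of the proteasome and of free ubiquitin chains read lower, 1 of them at an unadjusted p under 0.05, beside 8.43% of all genes. Usp14 trims ubiquitin from substrates docked at the proteasome. It read 9.16, 9.15 and 9.21 in vehicle and 8.92, 8.92 and 8.87 with OSU-CG5, and the spread within each group was small (SD 0.03 and 0.03, n = 3). The difference was -0.27 (SE 0.11), 1.21-fold lower (limma adjusted p = 0.267). Its representative is of a design that can bind related transcripts, as are those of Usp38, Usp39, Usp45, Usp46os2 and Usp7, 6 in all. The gene's other 3 probe sets differed by 0.12, 0.53 and 0.33, all upward, and the mean of all 4 gave 0.18, so the direction for Usp14 depends on the probe set. Usp5, which takes apart unanchored ubiquitin chains, read 6.83, 7.18 and 6.87 in vehicle and 6.61, 6.75 and 6.72 with OSU-CG5, without overlap (difference -0.27, SE 0.13, or -0.15 without vehicle replicate 2). Its relative Usp13 differed by -0.21 (SE 0.13) and by -0.22 (SE 0.11) on its other probe set.

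The 8 histone and chromatin genes gave 0 members at an unadjusted p under 0.05, beside 5.4% of all genes higher and 8.43% lower, and a median of -0.03, with 4 above 0. Usp7, the deubiquitinase of Mdm2 and p53, read 10.12, 10.22 and 10.06 in vehicle and 10.10, 10.50 and 10.45 with OSU-CG5, so the groups overlapped (difference 0.21, SE 0.14). Usp22, the ubiquitin protease of the SAGA coactivator, read 8.22, 8.57 and 8.15, then 8.22, 7.98 and 8.16 (difference -0.20, SE 0.15, or -0.066 without vehicle replicate 2). Usp3, a histone H2A enzyme, differed by -0.20 (SE 0.15), Usp16 by 0.10 (SE 0.18) and Usp49 by 0.02 (SE 0.13). Removing vehicle replicate 2 changed the sign for Usp16, to -0.09. The dimmer Usp21, Usp27x and Usp44 differed by 0.01, -0.12 and -0.06.

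In the group of NF-kB and innate immunity, 1 of 5 was higher at an unadjusted p under 0.05, beside 5.4% of all genes. Usp38, which acts on the kinase Tbk1 in interferon signalling, read 7.16, 7.13 and 7.02 in vehicle and 7.57, 7.35 and 7.47 with OSU-CG5. The groups were well apart, with a difference of 0.36 (SE 0.12), 1.28-fold (limma adjusted p = 0.216), and of 0.38 without vehicle replicate 2. Usp38, Usp8 and Usp53 kept an unadjusted p under 0.05 in all 6 fits that leave out an array. Those fits share arrays with the fit that picked these genes, so this is description only. Usp18, an interferon-induced protease that removes Isg15, read 6.71, 6.84 and 6.11 in vehicle and 6.20, 6.54 and 6.59 with OSU-CG5, with overlap (difference -0.11, SE 0.21; 0.04 without vehicle replicate 2). Usp48, Usp25 and Usp31 differed by 0.19, -0.03 and -0.01.

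None of the 5 genes of organelles and RNA bodies reached an unadjusted p under 0.05, which 5.4% of all genes did upward and 8.43% downward. Usp10, the partner of G3bp proteins in stress granules, read 8.01, 8.47 and 8.004 in vehicle and 8.20, 8.22 and 8.24 with OSU-CG5. Vehicle replicate 2 was its highest array, and the difference was 0.06 (SE 0.15), or 0.22 without it and -0.02 without vehicle replicate 3. Usp30, which opposes mitophagy, and the endoplasmic reticulum enzyme Usp19 differed by -0.19 (SE 0.13) and -0.13 (SE 0.13). The nucleolar Usp36 and the splicing protein Usp39 differed by 0.21 and -0.16. Without vehicle replicate 2 Usp30, Usp19 and Usp39 differed by -0.10, -0.025 and -0.020.

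Of the germ line and less studied genes, Usp40 was higher at an unadjusted p under 0.05, 1 of 5 beside 5.4% of all genes, and the others did not reach it. Usp40 read 6.21, 6.19 and 6.50 in vehicle and 6.81, 6.51 and 6.68 with OSU-CG5, groups that all but touched (difference 0.37, SE 0.14; limma adjusted p = 0.258). Its other 3 probe sets were upward too, at 0.15, 0.47 and 0.75. Usp26 differed by -0.25 (SE 0.11), Usp50 by -0.24, Usp29 by -0.03 and Usp43 by 0.14. Outside the role groups, the antisense RNA Usp46os2 read 4.63, 4.75 and 4.52 in vehicle and 4.10, 4.39 and 4.32 with OSU-CG5. It differed by -0.37 (SE 0.13; limma adjusted p = 0.236), with both probe sets dim and downward.

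Promoter sequence is shown for 4 of the 9 members that read higher, because these genes' differences ran in the same direction. The RefSeq table held a window for 5 of the 9, the 250 bases before an annotated transcript start. Other transcripts of these genes start further out, so only the bases outside the annotated gene are printed, 5′ to 3′ on the gene's strand, which left none for Usp15. Capitals mark matches, on either strand, to any of 6 motifs. The GC box was searched as GGGCGG and the motif of ETS factors as CCGGAAG. The E-box was searched as CACGTG, and the TATA box as TATAAA. The CCAAT box is spelled by its name, and the palindromic NRF1 motif was the remaining one.
Usp8 (GRCm38.p6, chr2:126707078-126707200, + strand): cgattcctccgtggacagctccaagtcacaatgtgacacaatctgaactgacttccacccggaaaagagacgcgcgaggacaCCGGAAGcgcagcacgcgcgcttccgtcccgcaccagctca
Usp38 (GRCm38.p6, chr8:81015014-81015156, - strand): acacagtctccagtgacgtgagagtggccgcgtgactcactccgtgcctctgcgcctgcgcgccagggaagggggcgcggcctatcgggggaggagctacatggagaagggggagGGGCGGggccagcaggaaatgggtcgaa
Usp47 (GRCm38.p6, chr7:112023256-112023475, + strand): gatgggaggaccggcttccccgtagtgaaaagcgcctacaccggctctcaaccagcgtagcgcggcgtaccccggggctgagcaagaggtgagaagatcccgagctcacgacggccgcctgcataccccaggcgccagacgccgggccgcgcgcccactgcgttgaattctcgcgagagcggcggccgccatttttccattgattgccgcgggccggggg
Usp40 (GRCm38.p6, chr1:88008583-88008801, - strand): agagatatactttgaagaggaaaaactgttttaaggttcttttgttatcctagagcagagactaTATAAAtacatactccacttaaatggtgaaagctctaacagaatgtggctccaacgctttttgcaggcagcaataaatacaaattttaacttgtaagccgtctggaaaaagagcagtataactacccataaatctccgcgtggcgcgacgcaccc
The stretches of Usp8, Usp38 and Usp47 held 60.2%, 67.8% and 68.2% G and C and no TATA box. Usp8 had 1 match to the ETS motif and Usp38 1 GC box, while Usp47 had no match. Usp40 held 39.3% G and C and 1 TATA box. In the table as a whole, 32.7% of 32851 whole windows of 250 bases held a GC box, 33.8% a CCAAT box, 6.91% the ETS motif, 6.02% the E-box, 0.782% the NRF1 motif and 12.4% the TATA box. Among 40 windows of 39 Usp members the GC box was in 25 (62.5%), the CCAAT box in 11 (27.5%), the ETS motif in 7 (17.5%), the E-box in 4 (10.0%) and the TATA box in 2 (5.0%). The NRF1 motif was in 0. Usp windows had a median of 64.8% G and C, against 52.4% for all windows, and base composition bears on how often such motifs match. These are matches of letters only.

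Probe sets of the same Usp gene often read differently. Of 38 members with more than 1 probe set, the brightest other probe set had the same sign as the representative in 23 and the opposite sign in 15. Over the 77 other probe sets the median difference was 0.13, against -0.06 for other probe sets of all genes. At an unadjusted p under 0.05, 18 were higher (23.4%), where 9.47% of all such probe sets were, and 1 was lower (1.30%), where 6.48% were. Among those with a mean of at least 6, 11 of 36 were higher (30.6%), beside 17.2% of all other probe sets that bright. The 18 belonged to 15 genes, and the representative was also higher at that threshold in 5 of these and below 0 in 4. With the representatives, 19 genes had at least 1 probe set higher and 3 had at least 1 lower. The same count over all genes was not made, and a gene with more probe sets has more chances to enter it. These counts are therefore no result about the family.

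Usp7 had 7 probe sets and the widest range among those of mean at least 6, 1.23 log2 units. Its probe set of largest difference read 6.92, 6.25 and 7.28 in vehicle and 7.83, 8.06 and 8.06 with OSU-CG5, a difference of 1.17 (SE 0.24), 2.25-fold (limma adjusted p = 0.147). The value was 0.88 when vehicle replicate 2 was left out (limma adjusted p = 0.0386) and 1.40 when vehicle replicate 3 was left out (0.0346). The brightest Usp7 probe set differed by only 0.21, and 5 others by -0.06 to 0.34.

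Usp32 showed the same contrast within a gene. Its bright probe set differed by 0.18, and another read 7.47, 5.71 and 7.96 in vehicle and 8.36, 8.37 and 8.08 with OSU-CG5, a difference of 1.22 (SE 0.49) that became 0.56 without vehicle replicate 2. Usp3 gave -0.20, -0.23 and 0.11 on its 3 brightest probe sets and 0.67 (SE 0.17) on a dimmer one, at 5.76, 5.65 and 6.26 against 6.47, 6.70 and 6.52. A second Usp53 probe set read 6.23, 4.60 and 6.61, then 7.31, 7.49 and 7.13. This difference of 1.499 (SE 0.44), 2.83-fold, was the largest in the family, and it was 0.90 without vehicle replicate 2 (limma adjusted p = 0.0432). In those fits 0.591% (without vehicle replicate 2) and 1.77% (without vehicle replicate 3) of the other probe sets of all genes were higher at an adjusted p under 0.05, and 2 Usp ones were in each. The pair without vehicle replicate 3 was Usp7 and the dimmer Usp3 probe set (0.86, limma adjusted p = 0.0364). The remaining Usp53 probe set differed by 0.25.

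**Figure D4:**
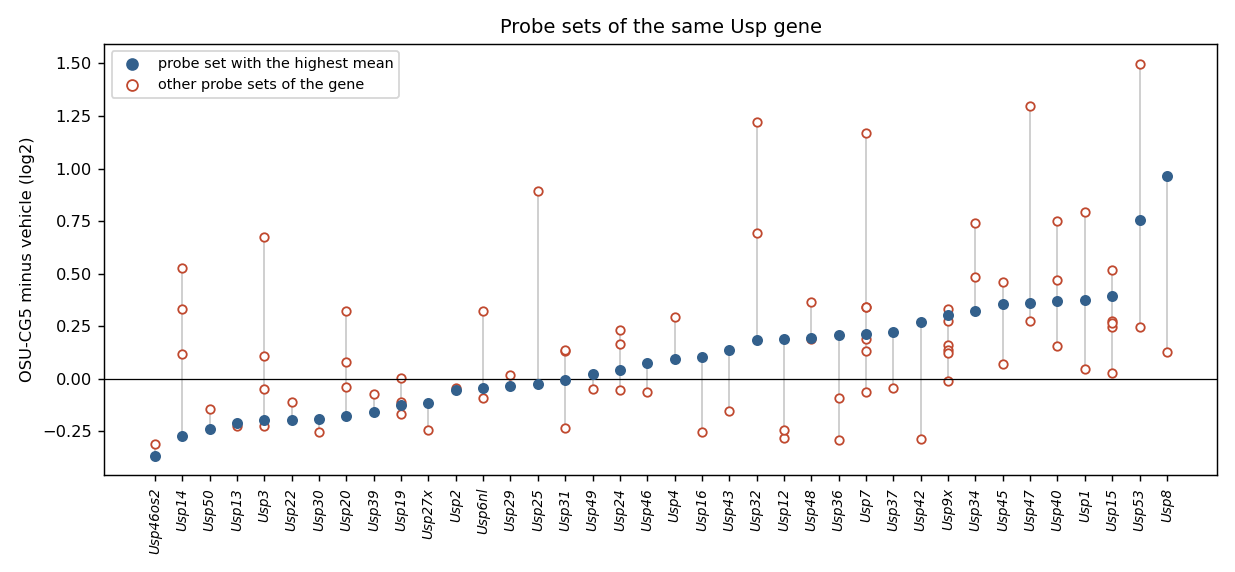
Log2 difference (OSU-CG5 minus vehicle) of every probe set of the 38 members with more than 1, with the probe set of highest mean in filled blue and the others open. For Usp7, Usp32 and Usp47 an open point lies at 1.17, 1.22 and 1.30, above a filled point at 0.21, 0.18 and 0.36.

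The platform annotation gives a sequence record number for most probe sets, and the kind of record was inferred here from its leading letters. Of the 128 Usp probe sets, 87 carried an expressed sequence tag (EST), 23 a cDNA or other mRNA record and 7 a RefSeq transcript. Among the 87, 22 were higher (25.3%) at an unadjusted p under 0.05, and their median log2 difference was 0.16. Over all single-symbol probe sets with an EST, 10.3% were higher. Those of the Usp genes were brighter, with a median mean signal of 6.83 against 5.60, so these shares are not matched for brightness. Of the 23 Usp probe sets with a cDNA or other mRNA record 2 were higher, where 5.06% of all such probe sets were, and of the 7 with a RefSeq transcript 0 were, where 2.8% of all were. The probe sets of largest difference, those of Usp53, Usp47, Usp32 and Usp7 between 1.17 and 1.499, were all of the EST kind. These groups were formed after the values were seen, and which transcript each probe set reads was not tested.

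Vehicle replicate 2 was the lowest array for 12 of the 51 representatives (23.5%, beside 15.1% of all genes) and the highest for 19 (37.3%, beside 38.4%). It gave the lowest value for 27 of the 77 other Usp probe sets (35.1%), where it was lowest for 20.3% of the other probe sets of all genes, and the highest value for 15. It was lowest for 14 of the 18 that read higher at an unadjusted p under 0.05. Over all 45037 probe sets, 2650 were at least 1.5-fold higher and 225 at least 1.5-fold lower, so differences of that size were mostly upward in general. All 12 Usp probe sets with at least a 1.5-fold difference, each of them upward, had their lowest value on vehicle replicate 2. Without that array 6 of the 12 were still at least 1.5-fold higher, and 13 of the 18 kept an unadjusted p under 0.05. In that fit 9.73% of the other probe sets of all genes were higher, but those were not picked in the same way. All 18 and all 12 were still above 0 without vehicle replicate 2, the lowest of them at 0.24 and 0.34. The 18 and the 12 were picked for upward differences in a fit that held the same remaining arrays. Staying upward was therefore likely beforehand and is no support.

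**Figure D5:**
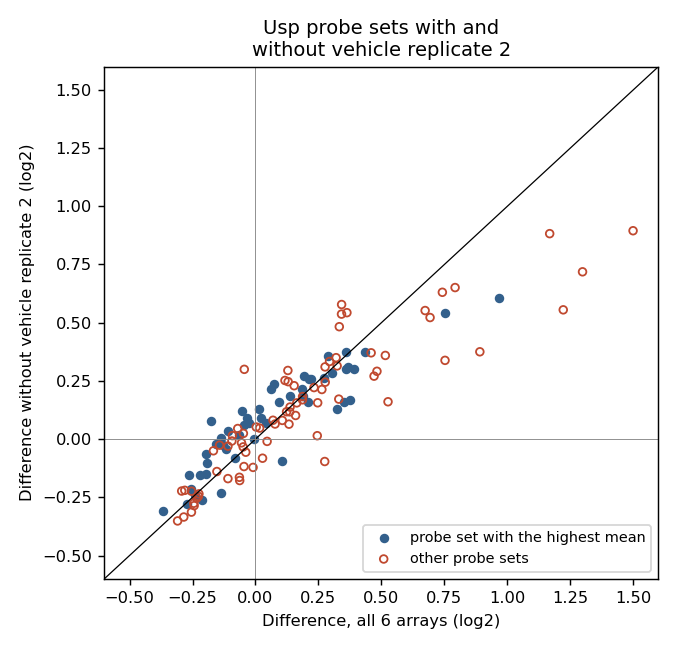
Log2 difference of each of the 128 Usp probe sets with all 6 arrays (x axis) and without vehicle replicate 2 (y axis), where the diagonal marks equal values. Points beyond 0.6 on the x axis lie below the diagonal, such as the Usp53 probe set at 1.499 and 0.90.

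Other genes of the ubiquitin system were read the same way. Many were bright, and the median mean signal of the deubiquitinases below was 8.20. Among all genes with a mean of at least 6, 9.13% were higher and 7.17% lower at an unadjusted p under 0.05. Of 35 measured deubiquitinases of the remaining families, 5 were higher (14.3%, beside 5.4% of all genes) and 1 lower (2.86%, beside 8.43%) at an unadjusted p under 0.05, with a median difference of -0.01, or 0.08 without vehicle replicate 2. Those higher were the histone H2A deubiquitinase Mysm1 (0.88, SE 0.23), the ER-associated degradation enzyme Yod1 (0.79, SE 0.24), the endosomal Stambpl1 (0.50, SE 0.16), Otud4 (0.47, SE 0.13) and Mindy2 (0.42, SE 0.16). Vehicle replicate 2 was the lowest array for all 5, and without it Yod1 differed by 0.49 and Mindy2 by 0.26, the latter no longer at an unadjusted p under 0.05. Mysm1 read 7.12, 6.47 and 7.37 in vehicle and 7.64, 7.90 and 8.07 with OSU-CG5, and its other probe sets differed by 0.85 and 1.15. Those of the remaining genes gave 0.41 and -0.20 for Yod1 and -0.0026 for Stambpl1. For Otud4 they gave -0.07 and 0.72, and for Mindy2 -0.07 and 0.19, so the direction often depended on the probe set. Josd2 was the lower one (-0.44, SE 0.12). The tumour suppressor Cyld and the desumoylating relative Uspl1 differed by 0.18 (SE 0.13) and -0.02 (SE 0.12).

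Among 10 partners of Usp proteins 3 were higher and 1 lower at an unadjusted p under 0.05, beside 5.4% and 8.43% of all genes. The partners were all bright, with means of 7.23 or more. Among all genes with a mean of at least 7, 10.3% were higher and 5.33% lower. The SAGA subunit Atxn7, which docks Usp22, read 8.04, 7.91 and 8.10 in vehicle and 8.51, 8.61 and 8.67 with OSU-CG5, a difference of 0.58 (SE 0.12; limma adjusted p = 0.143). Atxn7l3, which activates Usp22 in the same module, differed by -0.27 (SE 0.11), in the opposite direction. The activator Wdr20 differed by 0.34 (SE 0.14), Wdr48 by -0.07 (SE 0.15) and the stress granule protein G3bp2 by 0.30 (SE 0.12). Without vehicle replicate 2 neither Atxn7l3 nor G3bp2 kept an unadjusted p under 0.05. Other probe sets differed by -0.02 and 0.29 for Atxn7, by -0.16 and 0.30 for Wdr20, and by 0.26 and 0.17 for G3bp2. Of 7 measured substrates, 1 was higher at an unadjusted p under 0.05 on its brightest probe set, beside 5.4% of all genes. This was Mdm2, the ligase of p53 and a client of Usp7 and Usp2. It read 9.05, 8.92 and 9.15 in vehicle and 9.54, 9.68 and 9.46 with OSU-CG5, a difference of 0.52 (SE 0.12), 1.44-fold (limma adjusted p = 0.155), while its other probe sets, both dim, differed by -0.0064 and 0.13. Ctnnb1, the beta-catenin of Wnt signalling, differed by 0.22 (SE 0.13) on its brightest probe set and by 0.49 (SE 0.11) and 0.41 (SE 0.14) on its others. The ubiquitin-activating enzyme Uba6 differed by 0.46 (SE 0.23), or 0.22 without vehicle replicate 2. None of these genes passed the adjusted threshold.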

How the data were processed

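Trizol RNA (2 ug) of each mouse was turned into biotin-labelled cRNA and hybridised, per the labels' protocols. The authors deposited one table of log2 signals. The submitters' processing notes name RMA, and the program is not given in the sources used here. RMA normalizes the arrays together, which removes part of any shift shared by most transcripts. Raw intensities were not used here. Arrays were grouped by the treatment in their source label. For 2 treated arrays the description ends the compound name in a different digit, and these were kept in the OSU-CG5 group that their title and source name give. Replicate numbers follow the order of deposit and pair no mice. The labels say that each group had 3 mice, so p-values measure the spread between mice, and the number of arrays limits the precision.

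Of 45101 probe sets, 64 Affymetrix controls were removed. Probe sets were named from the platform annotation (34945 with 1 symbol, 932 with several, 9160 with none here), and 50 of 51 Usp genes matched a RefSeq gene number. Differences (OSU-CG5 minus vehicle) were fitted with lmFit and moderated with eBayes. The fit used limma 3.58.1 in R 4.3.3, kept dim probe sets, and adjusted p-values by Benjamini-Hochberg over 45037 probe sets. SE is the moderated standard error. The fit was tested on simulated data. Counts at an unadjusted p under 0.05 are descriptive and are read against the share over all genes. Genes described with all values were the 12 members of smallest unadjusted p, 9 fixed ones, the 3 highest and 3 lowest means and the 4 whose probe sets of mean at least log2 6 differed most. The members, role groups and lists were chosen with earlier results of these data known. Promoters are RefSeq's (GRCm38.p6), and 1602 overlapping windows on opposite strands matched as reverse complements. Alternatives covered normalization, variance model, filters, probe set choice, member rule and each array left out.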

Additional observations from a re-analysis of the deposited data

How the results depend on the processing

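With 3 arrays per group, no probe set on the array passed the adjusted threshold. The number of members past the adjusted threshold was 0 in every setting except without vehicle replicate 3, and ranged from 0 to 1 over the 6 fits leaving out an array. Array quality weights gave 822 adjusted calls over all probe sets and 0 among the members. The count of 9 members higher at an unadjusted p under 0.05 became 5 with quantile normalization repeated and 4 to 10 on leaving out an array. Shares over all genes were not counted with repeated quantile normalization, so its counts have no background beside them. The 2 lower became 4 with repeated quantile normalization, 1 with a mean of at least log2 6, 1 with symbols of Usp and digits only, 1 without Usp6nl and Usp46os2 (chosen after seeing the data) and 1 to 2 on leaving out an array. The median difference of the members was 0.14 with a mean of at least log2 6, where fewer genes enter, -0.020 with repeated quantile normalization, and ran from -0.04 to 0.09 on leaving out an array. Over all probe sets the median was -0.059 in the main fit and -0.047 with repeated quantile normalization. For the other deubiquitinases the median was -0.089 with repeated quantile normalization and -0.024 to 0.084 on leaving out an array, and for the partners -0.083 and -0.080 to 0.075. That of the other Usp probe sets stayed between 0.11 and 0.15 on leaving out an array. Signs turned for Usp10 with repeated quantile normalization (-0.020), for Usp2 (0.10) and Usp16 (-0.069) with array weights, and for Usp14 (0.18), Usp42 (-0.0070), Usp16 (-0.075) and Usp3 (0.061) with the mean of all probe sets of a gene. On leaving out an array, ranges that crossed 0 were -0.16 to 0.12 for Usp2, -0.016 to 0.22 for Usp10, -0.33 to 0.036 for Usp18, -0.093 to 0.23 for Usp16, -0.24 to 0.0050 for Usp17la and -0.24 to 0.034 for Usp44. The cause of these changes was not tested. No paired analysis was possible because the labels give the groups no shared replicate numbers.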
